A study of Mus musculus with 10 samples.

Results

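The transcription factor gene Bhlhe40 and 9 genes of the circadian clock were followed through RNA sequencing of dendritic cell precursors from mouse spleen. The 10 genes were taken by name from 52550 genes in the deposited table of log2 RPKM (the log2 of reads scaled to the length of the gene and to the depth of the library). Bhlhe40 was chosen by its log2 RPKM in pre-cDC1, which was lower in Adam10-deleted than in wild-type libraries, and the other genes because they belong to the clock. Of the 10 genes, 9 passed the filter on low values and Bhlhe41 did not. The values of Bhlhe40 in pre-cDC1, and the genotype difference of all 10 genes there, are therefore given below as a description with no test.

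Precursors already committed to one conventional dendritic cell lineage were sorted, either pre-cDC1 (DN in the titles) or pre-cDC2 (Ly6C in the titles). The KO libraries came from CD11c-cre Adam10fl/fl mice, in which a loxP-flanked part of the sheddase gene Adam10 is removed in cells where the CD11c promoter drives Cre, and the WT libraries from mice labelled wild type, all of strain C57BL/6. There were 3 KO and 3 WT libraries of pre-cDC1, and 2 KO and 2 WT libraries of pre-cDC2. The labels give neither the hour of collection nor whether replicates were separate animals, so p-values measure the spread between libraries alone.

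The clock of mammalian cells is a feedback loop in transcription. CLOCK and BMAL1, the product of Arntl, bind E-box elements as a pair and switch on the genes of their own repressors, the period and cryptochrome proteins. The nuclear receptors REV-ERB alpha and beta, products of Nr1d1 and Nr1d2, repress Arntl, and DBP carries the rhythm to output genes. BHLHE40 and its relative BHLHE41 also bind E-boxes and repress transcription. In lymphocytes and macrophages BHLHE40 is further known for holding down Il10 and for sustaining cytokine output and proliferation.

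Libraries held 7861652 to 13177281 reads, recovered from the deposited values. Xcr1, a cDC1 receptor, was at 8.25 to 8.30 log2 RPKM in KO and 7.58 to 7.89 in WT pre-cDC1 and at most 0.64 in pre-cDC2, while Ly6c2, which encodes a Ly6C protein, was at 9.22 to 9.62 in pre-cDC2 and at most 3.80 in pre-cDC1. Adam10 had 3 to 13 reads in KO and 10 to 48 in WT pre-cDC1, and 742 to 909 in KO and 228 to 1261 in WT pre-cDC2; these gene-level counts include exons outside the deleted part and do not check the deletion. Pre-cDC2 libraries also carried markers of other cells. The summed RPKM of 20 T cell markers was 2198 to 2328 in KO and 172 to 3208 in WT pre-cDC2, against 5.22 to 6.03 in KO and 16.8 to 29.1 in WT pre-cDC1. WT pre-cDC2 replicate 2 is the library with 172, and it stood apart in NK cell markers too, with a sum of 265 over 16 genes against 2313 to 2644 in the other pre-cDC2 libraries. Its dendritic cell identity markers (16 genes) summed to 11983 RPKM against 3911 to 4160 in those libraries, and its plasmacytoid markers (10 genes) to 985 against 371 to 551. B cell markers (12 genes) summed to 1416 to 1526 RPKM in KO and 1110 to 1726 in WT pre-cDC2. Erythroid markers (10 genes) summed to 35.2 to 67.2 in KO and 6.40 to 6.95 in WT pre-cDC2.

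Bhlhe40 (ENSMUSG00000030103.11, chromosome 6, 108660629 to 108666925 on the plus strand of GRCm38) was the member with the widest range among those with reads in every library. In KO pre-cDC1 it stood at 3.24, 2.54 and 3.11 log2 RPKM in replicates 1, 2 and 3, against 5.03, 4.90 and 5.31 in WT pre-cDC1. In pre-cDC2 it stood at 6.47 and 6.61 in KO replicates 1 and 2, against 7.24 and 6.40 in WT replicates 2 and 3. The pre-cDC1 genotypes did not overlap, the pre-cDC2 genotypes did, and every pre-cDC2 library lay above every pre-cDC1 library. Reads behind these values were 456, 268 and 307 in KO pre-cDC1 and 1375, 1256 and 1898 in WT pre-cDC1, and 4022 to 4098 in KO and 4426 to 9754 in WT pre-cDC2. A lower value in a bulk library can come from fewer expressing cells or from less RNA per cell, and these cannot be told apart here.

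The contrast that picked Bhlhe40 gave KO minus WT of -2.12 ± 0.25 log2 in pre-cDC1 (SE, n = 3 and 3), which is 4.34-fold lower. With each pre-cDC1 library left out in turn the difference lay between -2.26 and -1.90. In pre-cDC2, whose libraries played no part in the choice, KO minus WT was -0.28 ± 0.31 log2 (n = 2 and 2; limma adjusted p = 0.885; 95% interval -0.96 to 0.41). That difference did not pass, and without WT pre-cDC2 replicate 2 it was 0.14. Whether the genotype difference is unequal between the cell types was not tested, since it would rest on the values used to choose the gene. Between cell types, pre-cDC2 minus pre-cDC1 was 3.58 ± 0.28 log2 in KO and 1.74 ± 0.28 in WT, given as a description because the pre-cDC1 values were those of the choice. Without WT pre-cDC2 replicate 2 the WT value was 1.32. Among pre-cDC2, the highest Bhlhe40 value lay in the library with the highest dendritic cell identity and plasmacytoid sums. That library also had the fewest T and NK cell transcripts. In pre-cDC1, where such transcripts were few, Cd3e had 0 to 8 reads in KO and 16 to 23 in WT, and the summed NK markers were at 59.6 to 60.8 RPKM in KO and 109 to 118 in WT. Some other marker sums did not overlap between the pre-cDC1 genotypes either. Monocyte and neutrophil markers (12 genes) summed to 1113 to 1444 RPKM in KO and 1810 to 2007 in WT, B cell markers (12 genes) to 355 to 404 in KO and 597 to 702 in WT, and plasmacytoid dendritic cell markers (10 genes) to 61.9 to 76.5 in KO and 90.1 to 113 in WT. Summed over 10 genes, erythroid markers were at 40.1 to 75.7 RPKM in KO and 15.6 to 25.7 in WT pre-cDC1. Dendritic cell identity markers (16 genes) did overlap, at 31545 to 45631 RPKM in KO and 41905 to 45821 in WT pre-cDC1. Red pulp macrophage markers (10 genes) overlapped too, at 10.9 to 26.7 RPKM in KO and 20.3 to 32.5 in WT. The part of any of these in the Bhlhe40 level was not tested.

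**Figure D1:**
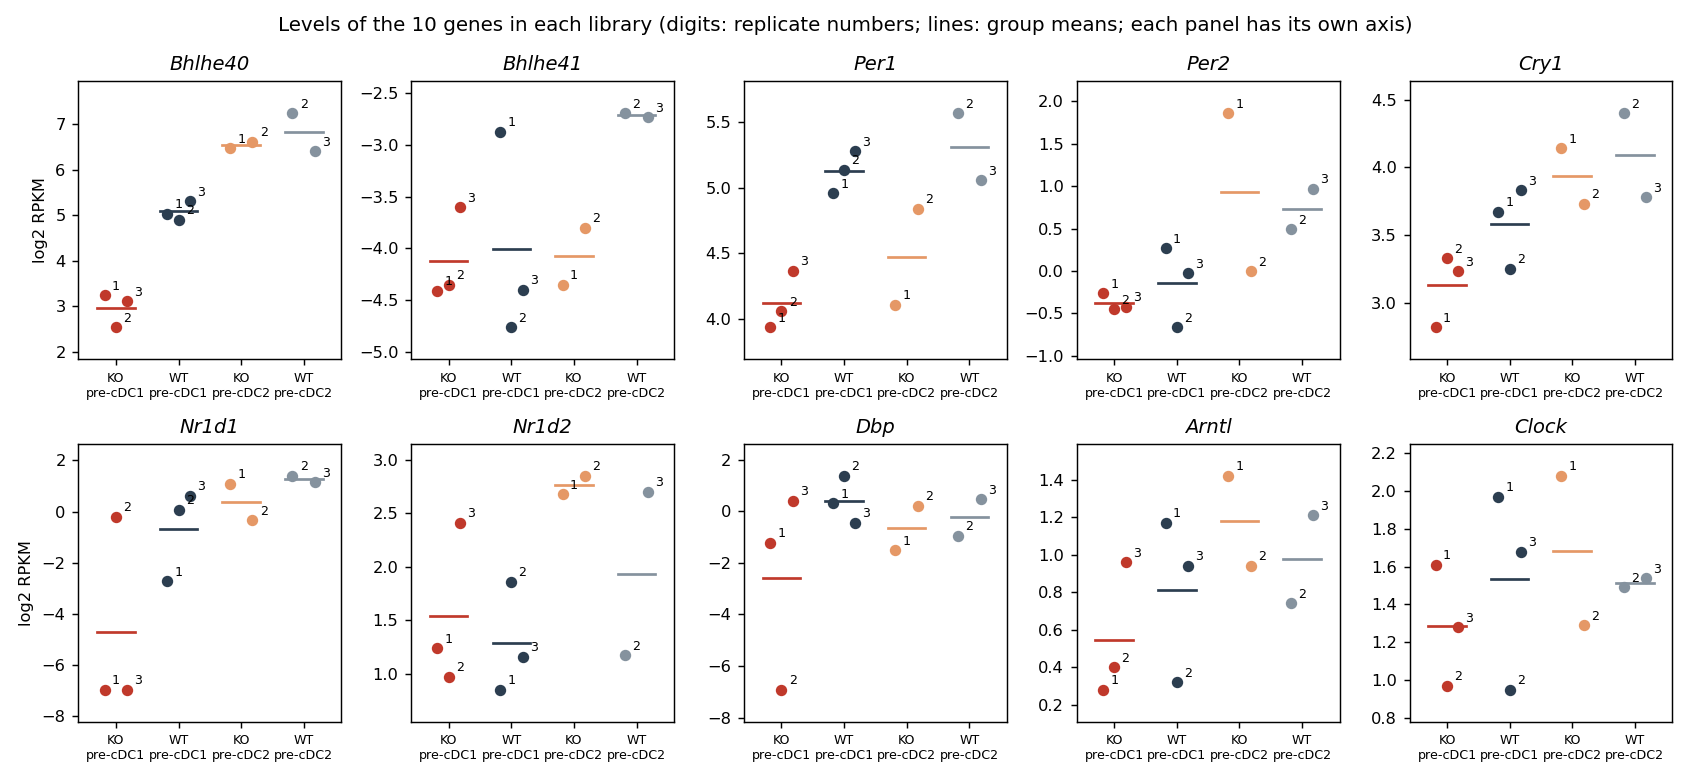
Log2 RPKM (vertical axes, one scale per panel) of the 10 genes in each library, with digits for replicate numbers and lines for group means. Bhlhe40 and Per1 lie lower in the 3 KO than in the 3 WT pre-cDC1 libraries, and Nr1d1 and Dbp include libraries with no read at the bottom of their panels.

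Bhlhe41 (ENSMUSG00000030256.11, chromosome 6, 145858243 to 145865558, minus strand), the closest relative of Bhlhe40, was near the limit of detection. It had 3, 3 and 4 reads in KO and 8, 2 and 3 in WT pre-cDC1, and 3 and 4 reads in KO and 14 and 11 in WT pre-cDC2. Summed over libraries and scaled to their depth, the ratio of KO to WT reads in pre-cDC2 was 0.375 (exact 95% interval 0.137 to 0.893, counting error only). The 2 KO libraries lay below the 2 WT libraries there. On the scale per length, Bhlhe40 averaged 93.3 RPKM in KO and 118 RPKM in WT pre-cDC2, where Bhlhe41 averaged 0.0605 and 0.153 RPKM. Bhlhe41 shares 1280 exonic bases with the predicted gene Gm43909 on the opposite strand, which had at most 1 read.

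Among the repressors of the core loop, Per1, a period gene that is also induced at once by glucocorticoids and growth signals, was abundant, and it was lower in KO than in WT in each cell type without overlap. Per1 (ENSMUSG00000020893.17, chromosome 11, 69095217 to 69109960, plus strand) was at 3.94, 4.06 and 4.37 log2 RPKM in KO pre-cDC1, against 4.96, 5.14 and 5.28 in WT pre-cDC1. In pre-cDC2 it was at 4.11 and 4.84 in KO, against 5.57 and 5.06 in WT. In pre-cDC1 KO was 2.00-fold lower than WT, with an SE of 0.22 on the log2 scale (n = 3 and 3; no test), from 884 to 923 reads in KO and 1572 to 2225 in WT.

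In pre-cDC2 the Per1 difference was -0.84 ± 0.27 log2 (n = 2 and 2), or 1.79-fold lower, with a 95% interval of -1.45 to -0.22. Its unadjusted limma p was 0.0129 and its adjusted p over all genes 0.578, so it did not pass. In the 8 alternatives other than leaving out a library, its limma adjusted p lay between 0.486 and 0.919. Over the 18 alternatives the difference lay between -1.20 and -0.48. The filters, the trend, the groups in the fit and leaving out a pre-cDC1 library cannot change this difference. As the genotypes did not overlap, leaving out 1 pre-cDC2 library cannot turn its sign, so the shared sign is no test. Without WT pre-cDC2 replicate 2 the difference was -0.58. Between cell types the Per1 libraries overlapped. Pre-cDC2 minus pre-cDC1 was 0.35 ± 0.25 log2 in KO (limma adjusted p = 0.369) and 0.19 ± 0.25 in WT (adjusted p = 0.697).

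Immediate early genes, the class to which the fast induction of Per1 belongs, were mostly on the same side. In pre-cDC1, 24 of 26 such genes were lower in KO with a median difference of -0.48 log2, against a median of -0.0038 over all genes tested. Their summed level was 3192 to 3678 RPKM in KO and 4834 to 5139 in WT pre-cDC1. In pre-cDC2, 19 of 26 were lower in KO with a median of -0.42, and the sums were 2812 to 2897 RPKM in KO and 3286 to 4461 in WT. limma called 0 of the 26 in pre-cDC1 and 0 in pre-cDC2, where it called 0.0271% and 0.0676% of all genes. Of the 26, 12 and 9 had an unadjusted limma p under 0.05, as did 9.03% and 6.67% of all genes. The list was chosen with earlier results of these data known, so these counts are a description and not a test. The part of this list in the Per1 and Bhlhe40 values was not tested.

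Cry1 (ENSMUSG00000020038.10, chromosome 10, 85131700 to 85185064, minus strand), a cryptochrome and the strongest repressor of CLOCK and BMAL1, was at 2.82, 3.33 and 3.23 log2 RPKM in KO and 3.67, 3.25 and 3.83 in WT pre-cDC1. It was at 4.14 and 3.73 in KO and 4.40 and 3.78 in WT pre-cDC2. Genotypes overlapped in both cell types, with KO minus WT of -0.45 ± 0.24 log2 in pre-cDC1 (no test) and -0.15 ± 0.30 in pre-cDC2 (limma adjusted p = 0.946). In KO, every pre-cDC2 library lay above every pre-cDC1 library, at 0.81 ± 0.27 log2 or 1.75-fold higher, which missed the threshold (unadjusted p = 0.0147, limma adjusted p = 0.0638). That adjusted p was 0.0418 and 0.0409 when WT pre-cDC2 replicate 2 or 3 was left out, and reached 0.348 without KO pre-cDC2 replicate 1. In WT the difference was 0.51 ± 0.27 (adjusted p = 0.280).

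Per2 (ENSMUSG00000055866.9, chromosome 1, 91415982 to 91459324, minus strand), the period gene closest to Per1, was far less abundant, averaging 0.772 RPKM in KO and 0.938 in WT pre-cDC1 where Per1 averaged 17.6 and 35.0. It was at -0.26, -0.45 and -0.42 log2 RPKM in KO and 0.27, -0.66 and -0.03 in WT pre-cDC1, from 33 to 63 reads. In pre-cDC2 it was at 1.86 and 0.0027 in KO, against 0.49 and 0.97 in WT, so the 2 KO libraries enclosed the WT ones. Pre-cDC2 minus pre-cDC1 was 1.31 ± 0.64 log2 in KO (limma adjusted p = 0.188) and 0.87 ± 0.64 in WT (adjusted p = 0.447). Neither passed, though the cell types did not overlap in either genotype. The genotype difference was -0.23 ± 0.57 in pre-cDC1 (no test) and 0.20 ± 0.70 in pre-cDC2 (adjusted p = 0.981).

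The E-box is the element that CLOCK, BMAL1 and BHLHE40 all recognise, so the bases before the starts of these genes were searched for it. RefSeq windows (GRCm38.p6) were found for 8 of the 10 genes, and in the 250 bases before a start the letters CACGTG, the same on either strand, occurred for 3 of these 8: Per1, Cry1 and Bhlhe41. Among all 27025 genes with a window, 6.86% held it. The match lay 166 to 161 bases before the upstream start of Per1, 60 to 55 before that of Cry1 and 153 to 148 before that of Bhlhe41. Shown are the stretches outside annotated exons, at chr11:69098699-69098947 (plus strand), chr10:85185065-85185304 (minus) and chr6:145865559-145865670 (minus), with CACGTG in capitals.
Per1: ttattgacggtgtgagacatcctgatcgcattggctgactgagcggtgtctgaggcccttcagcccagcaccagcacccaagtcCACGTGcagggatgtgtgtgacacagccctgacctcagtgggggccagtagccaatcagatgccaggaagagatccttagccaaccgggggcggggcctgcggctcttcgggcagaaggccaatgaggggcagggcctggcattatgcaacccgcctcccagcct
Cry1: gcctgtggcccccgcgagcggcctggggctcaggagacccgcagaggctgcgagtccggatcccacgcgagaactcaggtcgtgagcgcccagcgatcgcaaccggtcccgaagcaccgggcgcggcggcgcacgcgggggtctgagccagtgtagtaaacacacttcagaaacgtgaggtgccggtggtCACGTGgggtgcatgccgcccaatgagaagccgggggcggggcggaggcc
Bhlhe41: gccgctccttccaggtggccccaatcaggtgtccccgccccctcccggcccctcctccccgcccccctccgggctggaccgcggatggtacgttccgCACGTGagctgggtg

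The 3 genes with these letters were not alike in their values. Per1 was lower in KO in both cell types without overlap, Cry1 overlapped between genotypes in both, and Bhlhe41 had 2 to 14 reads. The letters of the D-box (TTATGTAA or TTACGTAA), the ROR element (TAGGTCA or TGGGTCA) and the cyclic AMP element (TGACGTCA), searched on either strand, occurred in none of the windows of the 8 genes; 1.1%, 6.15% and 1.77% of all genes held them. A match of letters is a description of the sequence and not a bound site.

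The REV-ERB genes differed from each other in level. Nr1d1 (ENSMUSG00000020889.11, chromosome 11, 98767932 to 98775333, minus strand) had 0, 26 and 0 reads in KO pre-cDC1 replicates 1, 2 and 3, against 4, 29 and 48 in WT pre-cDC1. It had 64 and 21 reads in KO pre-cDC2, against 111 and 76 in WT pre-cDC2. The KO libraries lay below the WT libraries in pre-cDC2, and in pre-cDC1 KO replicate 2 reached the WT range. The ratio of summed KO to WT reads, scaled to depth, was 0.326 in pre-cDC1 (exact 95% interval 0.201 to 0.512, counting error only) and 0.609 in pre-cDC2 (0.466 to 0.792). Fitted log2 differences of this gene depend on the libraries without reads, and between KO and WT pre-cDC2 the fit gave -0.90 ± 2.16 (limma adjusted p = 0.962).

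Nr1d1 overlaps Thra, the thyroid hormone receptor gene on the opposite strand, in 263 exonic bases (8.55% of its exons). The strand setting of the counting is not given in the sources used here, and Thra itself had 5 to 55 reads. In KO the fit put pre-cDC2 above pre-cDC1 by 5.08 ± 1.97 log2 (unadjusted p = 0.0289, adjusted p = 0.104). Leaving out replicate 2 of KO pre-cDC1 kept only libraries with no read in that group, and the adjusted p was then 0.0071. With 1 RPKM added before the log2, the difference was no longer set by the libraries at 0, and it was 0.93.

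Nr1d2 (ENSMUSG00000021775.11, chromosome 14, 18204054 to 18239127, minus strand) was at 1.24, 0.97 and 2.41 log2 RPKM in KO and 0.85, 1.86 and 1.16 in WT pre-cDC1. It was at 2.68 and 2.85 in KO and 1.17 and 2.70 in WT pre-cDC2, where WT replicate 2 was the low library. It was the one tested member with a positive fitted difference in KO pre-cDC1, at 0.25 ± 0.51 log2 (no test), which was -0.19 without KO pre-cDC1 replicate 3. In pre-cDC2 KO minus WT was 0.83 ± 0.62 (limma adjusted p = 0.845), or 0.062 without WT replicate 2. In KO, pre-cDC2 lay above pre-cDC1 in every library, by 1.23 ± 0.57 (adjusted p = 0.167), and in WT the difference was 0.65 ± 0.57 (adjusted p = 0.534).

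Dbp (ENSMUSG00000059824.12, chromosome 7, 45705088 to 45710203, plus strand), the output activator, was sparse and uneven. It had 13, 0 and 30 reads in KO and 33, 69 and 22 in WT pre-cDC1, and 10 and 30 in KO and 21 and 46 in WT pre-cDC2. Genotypes overlapped in both cell types. The ratio of summed KO to WT reads was 0.352 in pre-cDC1 (exact 95% interval 0.243 to 0.502, counting error only) and 0.800 in pre-cDC2 (0.527 to 1.20). In pre-cDC1, KO replicate 2, at 0 reads, carried much of the fitted difference of -2.98 ± 1.65 log2, which was -0.81 without it. Dbp shares 539 of its 2993 exonic bases with Sphk2 on the opposite strand, which had 408 to 872 reads, so without the strand setting reads in the shared part cannot be assigned to either gene.

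The activators varied least. Arntl (ENSMUSG00000055116.8, chromosome 7, 113207465 to 113314126, plus strand) was at 0.28, 0.40 and 0.96 log2 RPKM in KO and 1.17, 0.32 and 0.94 in WT pre-cDC1, and at 1.42 and 0.94 in KO and 0.74 and 1.21 in WT pre-cDC2. Clock (ENSMUSG00000029238.11, chromosome 5, 76209868 to 76304792, minus strand) was at 1.61, 0.97 and 1.28 in KO and 1.97, 0.95 and 1.68 in WT pre-cDC1, and at 2.08 and 1.29 in KO and 1.49 and 1.54 in WT pre-cDC2. Genotypes overlapped in both cell types for both genes. Over the 10 libraries Arntl spanned 1.14 log2 and Clock 1.13, the narrowest ranges of the 10 genes, against 4.70 for Bhlhe40. KO minus WT in pre-cDC2 was 0.21 ± 0.50 for Arntl (limma adjusted p = 0.962; 95% interval -0.91 to 1.33) and 0.17 ± 0.46 for Clock (adjusted p = 0.969; -0.86 to 1.20). A rise of 2-fold lies inside both intervals and a fall of 2-fold outside both.

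**Figure D2:**
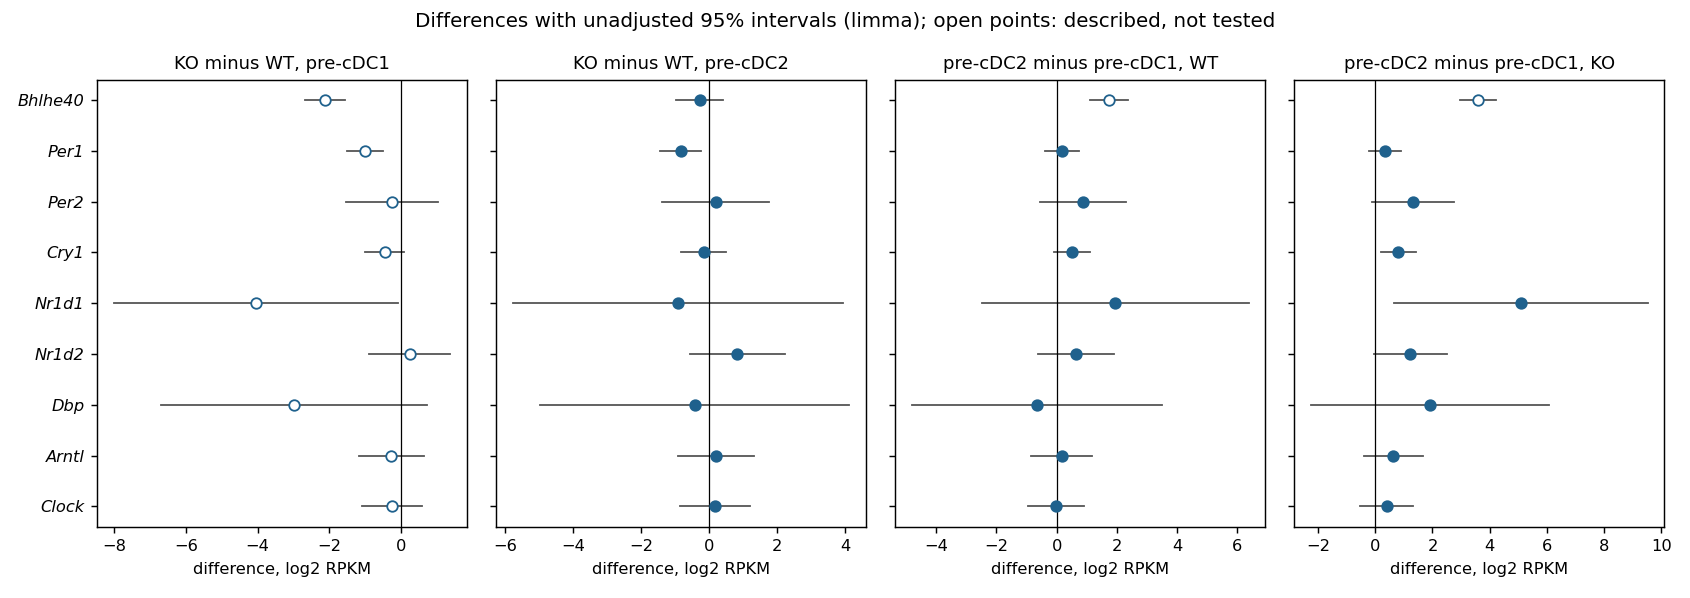
Fitted differences in log2 RPKM (points) with unadjusted 95% intervals (lines) for the 9 genes that passed the filter, one panel per comparison with its own axis; open points are described and not tested. Per1 lies below 0 in both panels of KO minus WT, and the intervals of Nr1d1 and Dbp, which have libraries with no read, are the widest.

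Set side by side, the 10 genes gave few calls. In KO against WT pre-cDC1, 1 of the 9 tested members was called by limma, Bhlhe40 itself, where 0.0271% of 14787 genes were called. Among these 9, Bhlhe40 and Per1 were lower without overlap, where 9.27% of the 14787 genes were. Nothing is read from these counts, as this contrast chose the set. Of the 9, 8 had a negative difference. In KO against WT pre-cDC2, limma called 0 of 9, where 0.0676% of all genes were called; Per1 alone had an unadjusted p under 0.05, and voom on the recovered reads also called 0. In that comparison Per1 and Nr1d1, among the 9 tested, were lower without overlap, where 14.6% of the 14787 genes were. Bhlhe41 was too, but it did not pass the filter and lies outside that share. The 9 differences, 4 positive and 5 negative, had a median of -0.15 log2 against 0.0048 over all genes.

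Between cell types, Bhlhe40 set aside, limma called 0 of 8 members in KO, where 20.8% of all genes were called, with 2 (Cry1 and Nr1d1) at an unadjusted p under 0.05, as had 33.0% of all genes. In WT it called 0 of 8, where 11.5% of all genes were called, with 0 at an unadjusted p under 0.05. Voom on the recovered reads called 0 of 8 in each as well. Among these 8, Per2, Cry1 and Nr1d2 were higher in pre-cDC2 without overlap in KO, where 28.6% of the genes tested were. In WT, Per2 and Nr1d1 were, where 20.2% of the genes tested were. Bhlhe41 was also higher in WT without overlap, but it did not pass the filter and lies outside that share. All 8 differences were positive in KO (median 1.02 log2, against 0.090 over all genes) and 6 of 8 in WT (median 0.35, against 0.059). These comparisons share libraries with the comparisons between genotypes and are not independent of them. The pre-cDC2 libraries also carried the T and NK cell markers given above, and their part in these differences was not tested.

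The order of levels per length was nearly the same in each group. In pre-cDC2 Bhlhe40 came first, with a mean of 6.54 log2 RPKM in KO and 6.82 in WT, followed by Per1 (4.48 and 5.31) and Cry1 (3.94 and 4.09). In KO pre-cDC1 the order at the top was Per1 (4.12), Cry1 (3.13) and Bhlhe40 (2.96), and the last 2 overlapped between libraries. In WT pre-cDC1 Per1 (5.12) and Bhlhe40 (5.08) overlapped, with Cry1 (3.58) below both. Nr1d2, Clock and Arntl lay in the middle in every group, and Bhlhe41 was last in 3 of the 4 groups, with Nr1d1 last in KO pre-cDC1, where 2 libraries had no read of it. By mean RPKM Bhlhe41 was below Nr1d1 there too, at 0.0595 against 0.295. In WT pre-cDC2 the mean of Bhlhe40 stood above 98.5% of genes with a read, and in KO pre-cDC1 above 73.7%.

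The genes whose pattern was most like that of Bhlhe40 were found by centring each log2 RPKM profile on its own mean over the 10 libraries and taking the root mean square difference. Of 8665 candidate genes whose mean reached 1 log2 RPKM, the closest included L1cam, an adhesion molecule (0.235 log2), Tnfsf9, a costimulatory ligand (0.249), Sirpa, the CD47 receptor that marks cDC2 (0.319), and Crip2, a LIM domain protein (0.342). The median candidate was at 1.60. L1cam was at 1.78 to 2.29 log2 RPKM in KO and 4.17 to 4.46 in WT pre-cDC1, and at 5.62 to 5.75 in KO and 4.91 to 6.41 in WT pre-cDC2. Sirpa was at 0.84 to 1.34 in KO and 2.52 to 3.69 in WT pre-cDC1, and at 4.16 to 4.55 in KO and 3.89 to 5.47 in WT pre-cDC2. Of the clock genes, Cry1 (1.21), Per2 (1.22) and Per1 (1.29) were the nearest, with 648, 661 and 911 candidates nearer. The likeness includes the low KO pre-cDC1 values for which Bhlhe40 was chosen and is given with no test.

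**Figure D3:**
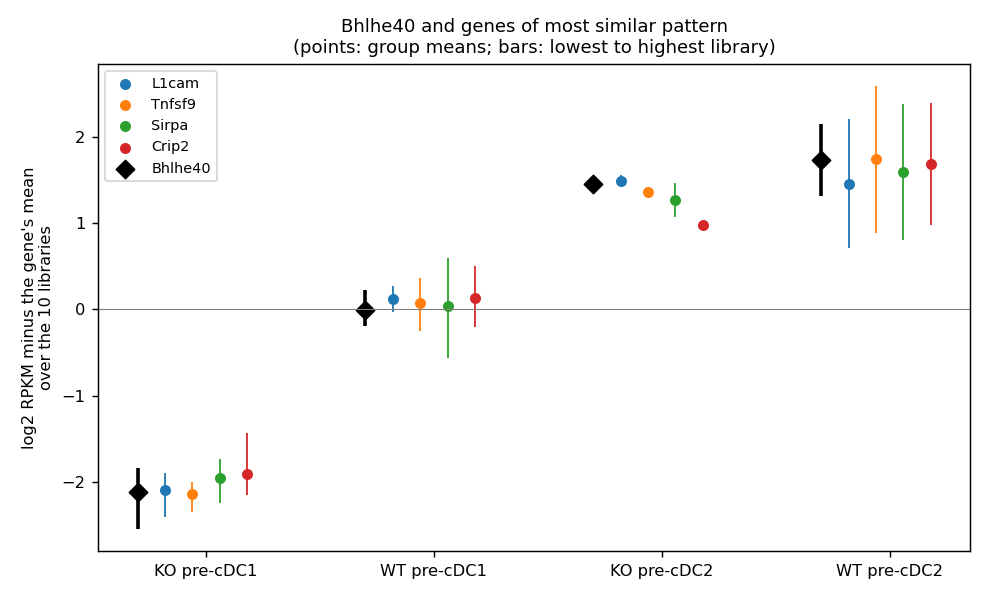
Log2 RPKM minus each gene's mean over the 10 libraries (vertical axis) for Bhlhe40 (diamonds) and 4 genes of close pattern, by group; points are group means and bars run from the lowest to the highest library. The 5 genes lie lowest in KO pre-cDC1 and spread most in WT pre-cDC2, where bars join 2 libraries.

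Other genes of the clock were described from a list of 17 further core genes, 12 of them tested, and 10 output genes, 8 of them tested. Between KO and WT pre-cDC2, limma called 0 of the 20, as did voom, where limma called 0.0676% of all genes. Only 1 had an unadjusted limma p under 0.05, as had 6.67% of all genes. It was Csnk1d, a kinase that marks period proteins for destruction, at -0.51 ± 0.18 log2 (limma adjusted p = 0.632). Tspan4, a tetraspanin, was at 0.65 ± 0.31 (adjusted p = 0.761). Between KO and WT pre-cDC1, described only, 8 of 12 core genes were higher in KO with a median of 0.30 log2, and 7 of 8 output genes were lower with a median of -0.29, against -0.0038 over all genes. limma and voom each called 0 of the 20 there, with 2 at an unadjusted p under 0.05. Over all genes limma called 0.0271% there, and 9.03% had an unadjusted p under 0.05. Timeless, which acts with Tipin at replication forks besides its link to the clock, was at 2.94 to 3.10 log2 RPKM in KO and 2.10 to 2.24 in WT pre-cDC1, without overlap. The period gene Per3 was also higher in KO without overlap, at 0.87 to 1.56 against -0.93 to 0.81 in WT. Tspan4 (1.01 to 1.34 in KO, 1.64 to 2.02 in WT) and Tef (-0.37 to 0.32, 0.36 to 0.78) were lower without overlap. Over all genes tested, 7.88% were higher and 9.27% lower in KO pre-cDC1 without overlap.

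Between the cell types in KO, limma called 7 of the 20, 5 of them lower in pre-cDC2. Timeless fell by 1.60 ± 0.29 log2 (limma adjusted p = 0.0048), Csnk1d fell by 0.84 ± 0.16 (adjusted p = 0.0060) and Wee1, a kinase that holds back mitosis, fell by 1.54 ± 0.40 (adjusted p = 0.0256). Tipin fell by 0.80 ± 0.23 (adjusted p = 0.0352) and Per3, the remaining period gene, fell by 2.17 ± 0.67 (adjusted p = 0.0478). The PAR bZIP factor gene Tef, a relative of Dbp, rose by 1.64 ± 0.42 (adjusted p = 0.0234), and Tspan4 rose by 1.30 ± 0.28 (adjusted p = 0.0103). The share called over all genes was 20.8%, with 10.1% lower and 10.7% higher. The KO pre-cDC2 libraries also carried the T and NK cell markers given above. In them 16 dendritic cell identity markers, Xcr1 among them, summed to 3911 to 4160 RPKM, against 31545 to 45631 in KO pre-cDC1. The part of these other cells in the differences was not tested. With each of the 10 libraries left out in turn, the Timeless call held every time; Per3 and Tipin lost the call in 7 of 10, Wee1 in 4, Tef in 3, Tspan4 in 2 and Csnk1d in 1, with the highest adjusted p always without a KO pre-cDC2 library (0.203 for Per3 without replicate 2, 0.182 for Wee1 without replicate 2, 0.172 for Tipin without replicate 1). Other settings ended calls too. Tipin lost it in 5 of 8, with a limma adjusted p of 0.0604 with no filter, 0.0716 without the trend, 0.0873 with only the compared groups, 0.0640 with the replicate block and 0.0852 by voom. Per3 lost it with no filter (0.0518) and with the block (0.0714), Tef with the block (0.0643) and Wee1 with only the compared groups (0.0563). Voom also called 7 of the 20, with Rora in place of Tipin.

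In WT, limma called 0 of the 20 between cell types, with 4 at an unadjusted p under 0.05, and voom called 2, Cry2 and Tef. Over all genes limma called 11.5%, and 25.2% had an unadjusted p under 0.05. The smallest belonged to Timeless at -0.99 ± 0.29 log2 (limma adjusted p = 0.0614), Wee1 at -1.34 ± 0.40 (adjusted p = 0.0660) and Cry2, the other cryptochrome gene, at 1.33 ± 0.45 (adjusted p = 0.0911).

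**Figure D4:**
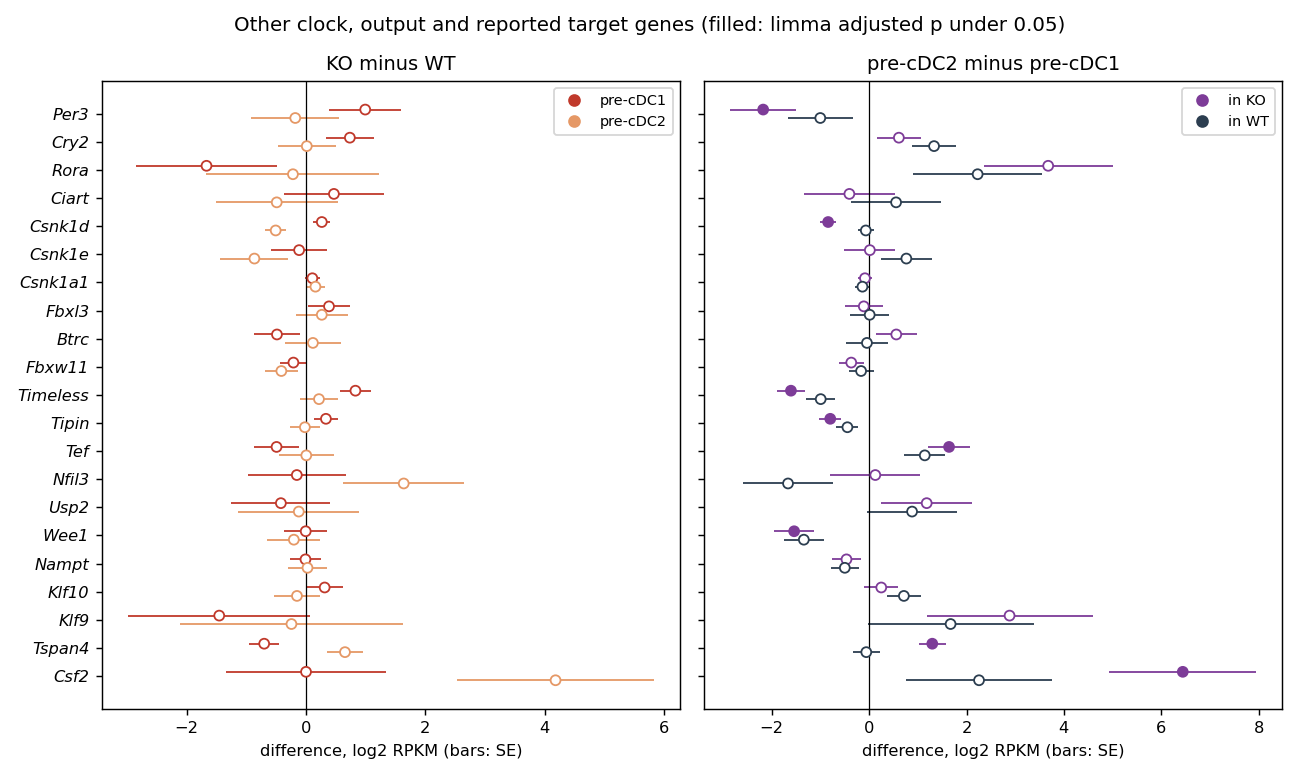
Differences in log2 RPKM (points, with SE as bars) of the 21 tested genes among other clock, output and reported target genes, KO minus WT on the left and pre-cDC2 minus pre-cDC1 on the right; filled points had a limma adjusted p under 0.05. Filled points appear on the right for KO, among them Timeless and Csnk1d below 0 and Tef above it. The filled point of Csf2 is not read as a test, since Csf2 passed the filter only through KO pre-cDC2.

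Csf2, the gene of GM-CSF and among those reported as controlled by BHLHE40 in other immune cells, had 24 and 16 reads in KO pre-cDC2, 0 and 6 in WT pre-cDC2 and 0 in all 6 pre-cDC1 libraries. Csf2 passed the filter only through the KO pre-cDC2 libraries, at 1.2 and 1.6 log2 RPKM, against at most -0.51 in WT pre-cDC2. Its differences are therefore given as a description with no test. In KO, pre-cDC2 was at least 6.46-fold higher than pre-cDC1 against a floor of 3 reads per library. The other reported targets on the list, Maf, Pparg and Il10, did not pass the filter. Maf had 22 and 23 reads in KO and 170 and 20 in WT pre-cDC2, and Pparg 0 and 0 in KO and 7 and 0 in WT. Il10 had 9 and 2 reads in KO pre-cDC2 and 0 in both WT pre-cDC2 libraries. T cells also make Csf2 and Il10, and the T cell marker sums given above were at least 2198 RPKM in each pre-cDC2 library other than WT replicate 2; their part in these reads was not tested.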

How the data were processed

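RNA of sorted cells was amplified from 2 ng with the SMARTSeq v2 protocol and sequenced as paired ends, per the labels' protocols. Per the submitters' processing notes, the tools were STAR 2.3, featureCounts 1.5.0, edgeR and R 3.3.3, with build GRCm38 (mm10); no source used here gives the annotation release or strand setting. The deposited values are log2 RPKM, made by the authors. All 490350 values of 49035 genes with a GENCODE M21 length solved to whole reads within 0.001, and these recovered reads served for depths, ratios, floors of 3 reads and 1 alternative.

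Genes above 0 log2 RPKM in at least 2 libraries were tested (14787), with no pseudocount added. Means of the 4 groups were fitted with limma 3.58.1 (R 4.3.3) and trended eBayes (6 residual and 3.31 prior degrees of freedom). Tests were two-sided, with Benjamini-Hochberg adjustment over all genes tested and a threshold of 0.05, and the procedure was tested on simulated data. Named were all 10 members, the clock list genes past the threshold (at most 8 per comparison, otherwise the 3 with the smallest p) and the 5 genes closest in pattern to Bhlhe40; genes that these rules chose but the text does not give are not reported here. Rora, Il10, Maf and Pparg fall outside these rules and were named after their values were seen. The members and lists were chosen with earlier results of these data known. Alternatives covered the filter, an added 1 RPKM, quantile normalization, the trend, the groups in the fit, the replicate block, voom and leaving out each library. Exact intervals on reads cover counting error only, since PCR reads without molecular identifiers are not independent molecules.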

Additional observations from a re-analysis of the deposited data

How the results depend on the processing

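The number of members called in KO against WT pre-cDC1 was 1 and became 0 with 1 RPKM added before the log2, with eBayes without a trend, with only the compared groups in the fit, with voom on the recovered reads and with the replicate number as a block; leaving out 1 library gave 0 to 1. That call was Bhlhe40 in the contrast that chose it, so these counts describe the choice and test nothing. Between cell types in KO it was 0, and 0 to 1 with 1 library left out. No alternative made a call in KO against WT pre-cDC2 or between cell types in WT. The causes were not tested. Counts over all genes were 4 in KO against WT pre-cDC1 (0 to 114 under alternatives), 10 in pre-cDC2 (0 to 1048), 1697 between cell types in WT (460 to 2722) and 3074 in KO (1418 to 3887).

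Over same-numbered libraries, deviations from group means correlated between -0.030 and 0.032. The labels do not say what the numbers mark. In a group of 2 libraries the deviations mirror each other, so these correlations cannot show whether same-numbered libraries were paired. With the number as a block, 0, 2, 1164 and 2660 genes were called over all genes in KO against WT pre-cDC1, KO against WT pre-cDC2, and between cell types in WT and in KO. The fitted KO minus WT in pre-cDC2 turned to -0.028 for Per2, 0.069 for Dbp and -0.031 for Clock, and pre-cDC2 minus pre-cDC1 in WT to 0.18 for Clock. Quantile normalization turned Per2 in KO against WT pre-cDC2 to -0.056 and Arntl between cell types in WT to -0.0097.

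Leaving out 1 library turned these uncalled differences, besides that of Nr1d2 in KO against WT pre-cDC1 (-0.19 to 0.53). KO minus WT in pre-cDC2 ranged from -0.70 to 0.14 for Bhlhe40, -0.73 to 1.13 for Per2, -0.46 to 0.15 for Cry1, -1.29 to 0.45 for Dbp, -0.033 to 0.45 for Arntl and -0.23 to 0.56 for Clock. Between cell types in WT it ranged from -0.067 to 0.44 for Per1, -0.12 to 1.41 for Nr1d2, -1.35 to 0.067 for Dbp, -0.083 to 0.40 for Arntl and -0.31 to 0.20 for Clock, and in KO from -0.012 to 0.71 for Per1 and -0.25 to 3.41 for Dbp. Of 782 alternative values for single genes, 718 were counted as kept. They held direction and side of the threshold or, where no test was made, stayed within the replicate SD. That SD reached 3.90 log2 for Nr1d1 and 3.85 for Dbp in KO pre-cDC1, a wide margin. In KO against WT pre-cDC1, Nr1d1 at -0.56 with 1 RPKM added (main fit -4.04) and Nr1d2 at -0.19 still counted as kept. The filters, the trend, the groups in the fit and leaving out a library of another group cannot change a difference. In those settings the direction was fixed beforehand, so the count of 718 is no measure of stability. Where a pre-cDC2 library was left out, its lone partner was taken to vary as much as the remaining groups do. Depth limits Bhlhe41, Nr1d1 and Dbp, which had 14, 111 and 69 reads at most.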
